A study of Mus musculus with 19 samples.

Results

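The lipid-associated macrophage genes are a set of 10 genes, Gpnmb, Trem2, Cd9, Spp1, Lpl, Mmp12, Atp6v0d2, Itgax, Lgals3 and Clec7a, taken by symbol from the gene-level count table of mouse liver. They are 10 of the 55836 genes listed, and all 10 were among the 13597 genes that passed the filter on low counts. The study asked how polyethylene (PE) microplastic particles given by mouth change the liver on a control diet and on a diet that produces metabolic dysfunction-associated steatohepatitis. Bulk liver RNA was sequenced from 19 wild-type male C57BL/6 mice, 1 library per mouse, all labelled as 1 batch. Mice were 8 weeks old at the start and were kept for 8 weeks on the control diet (CD, 10 kcal% fat) or the MASH diet (MD, with 40 kcal% from fat, 20 kcal% from fructose and cholesterol at 2%). Over the same time every mouse was gavaged, either with vehicle (Veh, water holding Tween) or with 2 mg of PE particles a day in that vehicle. There were 4 mice in CD + Veh and 5 in each of CD + PE, MD + Veh and MD + PE. The tissue was whole liver, so the set reports RNA from every cell type that expresses these genes and not from sorted macrophages.

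Lipid-associated macrophages are a state that macrophages take on in fat-laden tissue, in obese adipose tissue, in atherosclerotic plaque and in fatty liver. Trem2, a surface receptor for lipids and lipoproteins, signals in them through the adaptor Tyrobp and the kinase Syk, and the cells take up lipid and break it down in lysosomes. In fatty liver they gather around lipid-filled or dying hepatocytes, where Gpnmb, Spp1 and Cd9 are among the genes used to recognise them. Several of these genes have other sources as well: in liver Spp1 is made by bile duct cells, and outside liver Lpl is made by muscle and fat tissue.

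The set was described on 2 sides, its levels and the sequence at its start sites. Promoter windows of 300 bases (250 before the start and 50 after) came from RefSeq on GRCm38.p6 and covered 8 of the 10 genes in 11 windows. Lpl and Atp6v0d2 have no entry there. The motifs searched, on both strands, are short. The motif TGANTCA was in windows of 4 of the 8 genes and in 7.81% of all 32851 windows. It takes in the AP-1 (Fos and Jun proteins) sites TGACTCA and TGAGTCA, but also TGAATCA and TGATTCA, which are not the usual AP-1 form. GAGGAA, the core bound by the myeloid factor PU.1, was in 4 of the 8 genes and in 28.3% of all windows. The E-box CATGTG was found at 2 of the 8 genes and in 14.2% of windows, the E-box CACGTG at 0 of the 8 and in 7.15%, and TATAAA at 3 of the 8 and in 13.6%. The gene counts take any window of a gene, while the shares are of windows. By window, matches were in 4 of the 11 for TGANTCA, 5 for GAGGAA, 2 for CATGTG, 0 for CACGTG and 3 for TATAAA. A match describes letters and no binding was measured. The 4 genes with a TGANTCA match are shown because Gpnmb and Mmp12 had the largest differences between diets with PE and Trem2 gives the cell state its receptor. Each stretch runs from 120 bases before the start to 30 after it, and capitals mark every match to a searched motif on either strand.
Gpnmb (chr6:49036398-49036547, plus strand): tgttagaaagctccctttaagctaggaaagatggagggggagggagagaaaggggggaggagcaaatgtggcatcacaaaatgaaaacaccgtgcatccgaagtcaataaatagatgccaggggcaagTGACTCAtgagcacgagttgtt
Mmp12 (chr9:7347254-7347403, plus strand, the second of 2 listed starts): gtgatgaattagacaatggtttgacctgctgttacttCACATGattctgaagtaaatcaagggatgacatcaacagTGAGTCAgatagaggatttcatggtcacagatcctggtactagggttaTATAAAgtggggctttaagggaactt
Trem2 (chr17:48346281-48346430, plus strand): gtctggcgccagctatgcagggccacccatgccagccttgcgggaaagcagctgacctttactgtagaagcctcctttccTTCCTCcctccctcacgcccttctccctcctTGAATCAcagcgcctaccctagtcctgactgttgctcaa
Itgax (chr7:128129430-128129579, plus strand): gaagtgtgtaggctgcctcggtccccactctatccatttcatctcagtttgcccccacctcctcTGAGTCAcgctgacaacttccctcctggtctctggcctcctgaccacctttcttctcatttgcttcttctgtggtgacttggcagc
Counted from the start as base 1, the TGANTCA match began at base 9 in Gpnmb, -9 in Trem2, -44 in Mmp12 and -56 in Itgax. It read TGACTCA in Gpnmb, TGAGTCA in Mmp12 and Itgax, and TGAATCA in Trem2. The Mmp12 stretch also held matches to CATGTG (as CACATG) and TATAAA, and the Trem2 stretch a match to GAGGAA (as TTCCTC).

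Depth was 10398820 to 15456729 counts per library, and within each diet every PE library was shallower than every vehicle library. The library numbers also separate them, 39 to 47 for vehicle and 48 to 57 for PE, so effects of PE and of library order cannot be told apart. Levels below are CPM, counts scaled to a common library total with edgeR's TMM (trimmed mean) factors, and 1 CPM stood for about 10 to 16 counts. There were 3 libraries that stood apart on genes of the set or on markers. MD + PE replicate 4 was the highest of all 19 libraries in 9 of the 10 genes. MD + Veh replicate 1 was the highest in Lpl and summed to 2889 CPM over 8 skeletal muscle markers, against 1.03 to 378 CPM in the other libraries. CD + PE replicate 2 summed to 733 CPM over 10 pan-macrophage markers and to 871 CPM over 9 Kupffer cell markers, the highest sums of any library. Pan-macrophage sums were 187 to 252 CPM in CD + Veh, 132 to 733 in CD + PE, 341 to 463 in MD + Veh and 237 to 380 in MD + PE, so each group expressed the macrophage list.

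On vehicle, the MASH diet raised Gpnmb, Lpl, Itgax and Clec7a and lowered Cd9. These were 5 of the 10 genes (4 higher and 1 lower), where 10.4% of all genes tested were called, 4.74% higher and 5.63% lower. A call needed a Benjamini-Hochberg adjusted p below 0.05 in edgeR's quasi-likelihood test and a change of 0.38 or more on the log2 scale in either direction. The median log2 fold change of the 10 genes was 1.43, beside 0.00 over all genes tested, and 8 of the 10 were above 0. In 6 of the 10 genes the MD + Veh and CD + Veh libraries did not overlap, 5 with MD + Veh above and 1 below, where 16.2% of all genes tested did not overlap, 7.37% above and 8.88% below. On log2(CPM + 0.5), an exact two-sided permutation test gave p below 0.05 in 7 of the 10 (smallest possible p = 0.00794). The count depended on single libraries. It was 1 without CD + Veh replicate 3 or replicate 4, 2 without MD + Veh replicate 2 or replicate 3, and 3 when CD + Veh replicate 1 or 2, CD + PE replicate 3, or MD + Veh replicate 1 or 4 was left out. Lpl was called in all 19 of these fits and Gpnmb in 17.

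With PE given on both diets, the MASH diet raised Gpnmb, Mmp12 and Lgals3. These 3 genes of 10 (all higher) stood beside 4.61% of all genes tested, 1.69% higher and 2.92% lower. The median log2 fold change of the set was 1.496, beside -0.02 over all genes tested, and 9 of the 10 were above 0. MD + PE stood above CD + PE without overlap in 3 genes (Gpnmb, Lpl and Mmp12), where 6.18% of all genes tested did not overlap, 2.21% above and 3.96% below. Exact permutation tests gave p below 0.05 in 5 of the 10 (smallest possible p = 0.00794). DESeq2 called 7 genes here, adding Trem2, Lpl, Itgax and Clec7a, and over all genes it called 796 where edgeR called 627. The edgeR count ran from 2 to 6 over 19 fits with 1 library left out. It was 6 without CD + PE replicate 2 and 5 without MD + PE replicate 3. Gpnmb and Mmp12 were called in each of the 19 fits, and Lgals3 in 2 of them. In bulk liver, a change in the number of macrophages and a change in RNA per cell cannot be told apart.

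**Figure D1:**
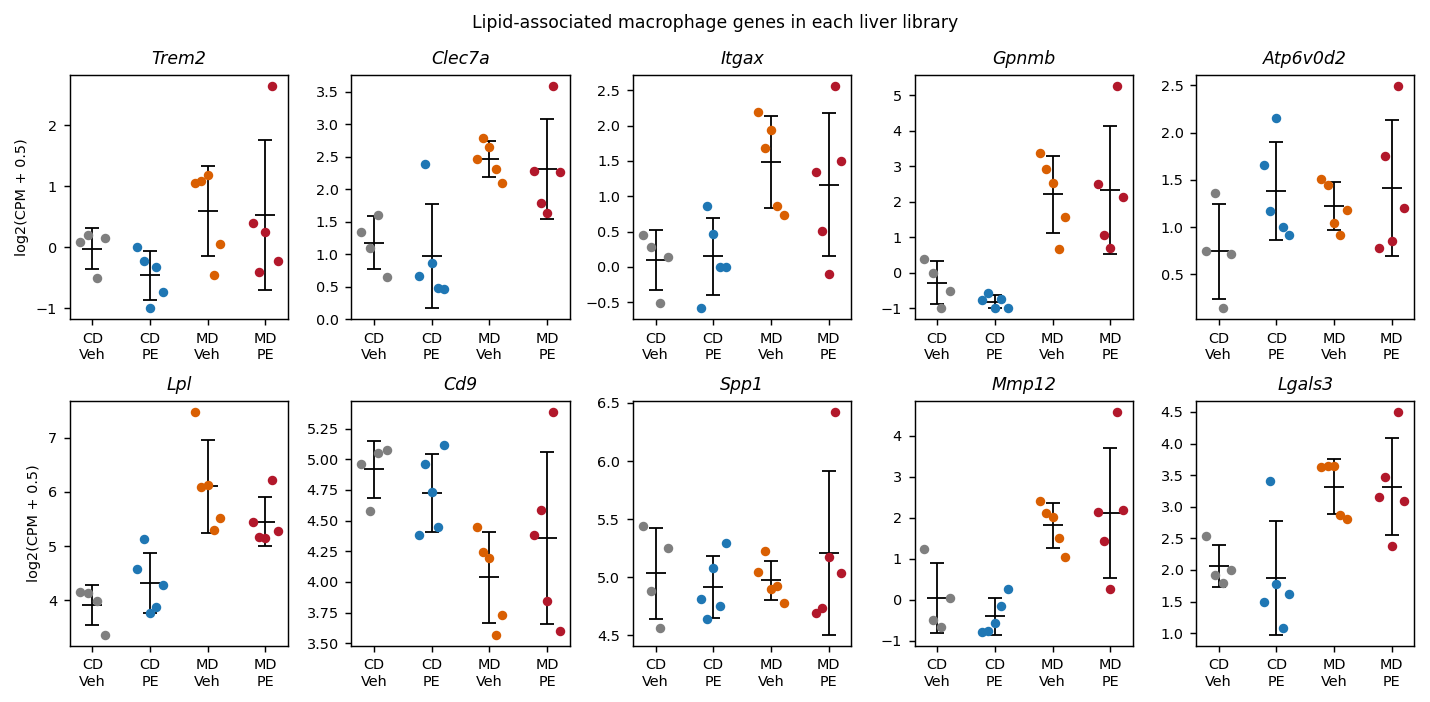
Each panel plots 1 gene as log2(CPM + 0.5) in every library by group, with the group mean and SD as bars (n = 4 in CD + Veh, n = 5 in the others), and each panel has its own vertical range. Gpnmb, Mmp12 and Lpl sit higher in the MASH diet groups, Spp1 does not, and MD + PE replicate 4 is the top point of its group in all 10 panels.

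Trem2 (chr17:48653429-48661175, plus strand, GRCm39), the lipid-sensing receptor that defines the state, held few counts, 14 to 109 summed over the libraries of a group. Its CPM was 0.5597, 0.645, 0.201 and 0.606 in the CD + Veh libraries and 0.498, 0.351, 0, 0.301 and 0.0988 in CD + PE. It was 1.58, 1.61, 1.77, 0.232 and 0.541 in MD + Veh and 0.813, 0.253, 0.695, 5.77 and 0.359 in MD + PE. MD + Veh replicates 1 to 3 and MD + PE replicates 1, 3 and 4 were above every CD library, MD + PE replicate 4 by far the highest, while the other 4 MD libraries lay inside the CD range. The log2 fold change was 1.19 ± 0.82 (SE) on vehicle (edgeR adjusted p = 0.356) and 2.63 ± 0.86 with PE (adjusted p = 0.0722). Neither was called by edgeR. With PE the change was 1.05 without MD + PE replicate 4, and it was called without MD + PE replicate 2 (2.90, adjusted p = 0.0491).

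Clec7a (chr6:129438554-129449742, minus strand), which encodes the beta-glucan receptor Dectin-1, gave CPM of 2.05, 1.65, 2.55 and 1.08 in CD + Veh and 1.08, 4.74, 1.32, 0.904 and 0.889 in CD + PE. MD + Veh libraries had 5.01, 6.44, 5.796, 4.49 and 3.79 CPM and MD + PE libraries 4.39, 2.95, 2.61, 11.6 and 4.31 CPM. All 5 MD + Veh libraries lay above all 4 CD + Veh libraries, and CD + PE replicate 2 stood above 2 of the MD + Veh and 4 of the MD + PE libraries. On vehicle Clec7a rose by 1.47 ± 0.48 (log2, SE; adjusted p = 0.0469). This call was lost in 11 of 19 fits with 1 library left out, at changes of 1.30 to 1.67 and adjusted p up to 0.137: without any 1 of the CD + Veh libraries, CD + PE replicate 3, MD + Veh replicates 1 to 4, or MD + PE replicate 1 or 5. It also went with no filter on low counts (adjusted p = 0.0592) and with the replicate number as a block (adjusted p = 0.0523). With PE the change was 1.53 ± 0.46, at an adjusted p of 0.050035 that missed the threshold. It was called without CD + PE replicate 2 (2.30, adjusted p = 0.00152), MD + PE replicate 2 (1.68) or MD + PE replicate 3 (1.70).

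Itgax (chr7:127728668-127749829, plus strand) encodes CD11c, an integrin of dendritic cells and of activated macrophages. Its CPM was 0.871, 0.716, 0.201 and 0.606 in CD + Veh and 0.166, 1.32, 0.883, 0.502 and 0.494 in CD + PE. On the MASH diet it was 4.06, 2.73, 3.34, 1.32 and 1.16 in MD + Veh and 2.03, 0.926, 0.435, 5.42 and 2.33 in MD + PE. MD + Veh did not overlap CD + Veh, whereas MD + PE replicates 2 and 3 fell inside the CD + PE range. On vehicle the gene rose by 2.06 ± 0.63 (log2, SE; edgeR adjusted p = 0.0355), and the difference with PE, 1.73 ± 0.60 (adjusted p = 0.0908), was not called. The vehicle call was lost, at adjusted p of 0.0558 to 0.101 and changes of 1.77 to 2.31, without any 1 of the CD + Veh libraries or MD + Veh replicates 1 to 3, and with libraries thinned to the smallest total (1.96, adjusted p = 0.0517). With PE it was called without CD + PE replicate 2 (2.13) or MD + PE replicate 3 (1.99). Sums over 8 dendritic cell markers were 8.86 to 11.2 CPM in CD + Veh and 8.98 to 13.1 in MD + Veh, and 0 of the 2 that were tested were called (10.4% of all genes tested).

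Gpnmb (chr6:49013426-49047863, plus strand), a transmembrane glycoprotein of lysosomes and phagosomes, showed the widest range of the set on the log2 scale. CD + Veh libraries had 0.808, 0.501, 0 and 0.202 CPM and CD + PE libraries 0.08302, 0.175, 0, 0.1004 and 0 CPM. MD + Veh libraries had 9.76, 7.06, 5.25, 1.08 and 2.47 CPM and MD + PE libraries 5.12, 1.6000000, 1.13, 37.97 and 3.86 CPM. Every MD library was above every CD library, with MD + PE replicate 4 more than 3 times as high as any other. Gpnmb rose by 3.72 ± 1.05 on vehicle (log2, SE; adjusted p = 0.0226) and by 6.93 ± 1.26 with PE (adjusted p = 0.00191). The second value rests on 4 counts over the 5 CD + PE libraries, so its size is loosely fixed (4.24 to 9.62, 95% interval), and without MD + PE replicate 4 it was 5.17 and still called. Without CD + Veh replicate 3 or 4 the vehicle rise was 3.32 or 3.53 and lost its call (adjusted p = 0.0654 and 0.0705).

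Atp6v0d2 (chr4:19876838-19922614, minus strand) encodes a subunit of the proton pump that acidifies lysosomes, best known from osteoclasts. The gene had 1.18, 2.08, 0.604 and 1.15 CPM in CD + Veh and 2.66, 1.75, 3.97, 1.51 and 1.38 CPM in CD + PE. Values were 2.35, 2.23, 1.57, 1.39 and 1.78 CPM in MD + Veh and 1.22, 2.86, 1.304, 5.15 and 1.796 CPM in MD + PE. All groups overlapped. The change was 0.58 ± 0.43 on vehicle (95% interval -0.35 to 1.51, adjusted p = 0.407) and 0.14 ± 0.40 with PE (95% interval -0.71 to 0.98). Without MD + PE replicate 4 the second value was -0.32.

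Lpl (chr8:69284603-69360100, plus strand), lipoprotein lipase, releases fatty acids from circulating triglyceride and had the lowest adjusted p of the set on vehicle. CD + Veh libraries had 17.4, 17.1, 15.4 and 9.83 CPM and CD + PE libraries 23.5, 34.4, 13.1, 14.3 and 18.9 CPM. MD + Veh libraries had 178, 67.95, 69.3, 38.7 and 45.3 CPM and MD + PE libraries 43.2, 35.6, 34.9, 74.02 and 38.3 CPM. Every MD library was above every CD library. On vehicle Lpl rose by 2.42 ± 0.41 (log2, SE), 5.35-fold, with an adjusted p of 0.000546 in edgeR. Without MD + Veh replicate 1, the library with the highest skeletal muscle sum, the rise was 1.91 and still called. With PE the difference was 1.12 ± 0.37 (adjusted p = 0.0721), not called by edgeR in all libraries but called without CD + PE replicate 2 (1.38, adjusted p = 0.0264) or MD + Veh replicate 1 (1.13, adjusted p = 0.0165). Summed skeletal muscle markers were 2.70 to 2889 CPM in MD + Veh against 1.06 to 34.8 in CD + Veh, with 8 of 8 called higher (4.74% of all genes tested). Adipocyte marker sums were 24.5 to 62.6 against 18.7 to 24.9, with 2 of the 3 tested, Fabp4 and Cidea, called higher. Lipe, the third, averaged 13.7 CPM in MD + Veh and 14.3 in CD + Veh, and Adipoq, Plin1, Lep and Retn did not pass the filter on low counts. The part of these tissues in the Lpl level was not tested.

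Cd9 (chr6:125437210-125471778, minus strand), a tetraspanin of the plasma membrane and of exosomes found on many liver cells, went the other way. Control diet mice had 30.6, 23.4, 32.7 and 33.3 CPM in CD + Veh and 20.3, 30.6, 26.1, 21.3 and 34.3 CPM in CD + PE. MASH diet mice had 21.4, 18.4, 17.8, 11.4 and 12.7 CPM in MD + Veh and 20.3, 23.6, 13.8, 41.3 and 11.6 CPM in MD + PE. All 5 MD + Veh libraries were below all 4 CD + Veh libraries, while MD + PE spanned both ranges. Cd9 fell by 0.87 ± 0.28 on vehicle (log2, SE; adjusted p = 0.0425), and with PE the difference was -0.25 ± 0.27 (95% interval -0.82 to 0.31). At -0.92 to -0.77 and adjusted p of 0.0504 to 0.113, the fall lost its call when any 1 of CD + Veh replicates 1, 3 and 4, CD + PE replicate 3 and MD + Veh replicates 2 to 5 was left out. It also missed the threshold with the library number division in the model (-0.65, adjusted p = 0.163), with the replicate number as a block (-0.82, adjusted p = 0.0850) and with libraries thinned to the smallest total (-0.81, adjusted p = 0.0675).

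Spp1 (chr5:104582165-104589235, plus strand) encodes osteopontin, a secreted matrix protein that in liver comes from bile duct cells as well as from macrophages. The level was 42.97, 29.01, 23.2 and 37.6 CPM in CD + Veh and 27.6, 24.5, 33.4, 26.4 and 38.8 CPM in CD + PE. On the other diet it was 32.6, 36.9, 29.3, 29.95 and 26.96 CPM in MD + Veh and 25.4, 26.1, 35.6, 85.3 and 32.3 CPM in MD + PE. Apart from MD + PE replicate 4, all libraries lay between 23.2 and 42.97 CPM. The change was -0.09 ± 0.28 on vehicle (95% interval -0.69 to 0.51) and 0.45 ± 0.27 with PE (95% interval -0.12 to 1.02), the latter 0.00 without replicate 4. The library with the highest sum of 8 cholangiocyte markers, MD + PE replicate 2 at 177 CPM, had 26.1 CPM of Spp1, and MD + PE replicate 4 summed to 27.5.

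Mmp12 (chr9:7344381-7369499, plus strand), the macrophage elastase, had 1.87, 0.215, 0.134 and 0.539 CPM in CD + Veh and 0.08302, 0.0877, 0.177, 0.402 and 0.692 CPM in CD + PE. The MASH diet libraries had 4.82, 3.84, 3.55, 2.32 and 1.54 CPM (MD + Veh) and 3.9004, 2.19, 0.695, 23.3 and 4.04 CPM (MD + PE). With PE the diets did not overlap, though only just (0.695 against 0.692 CPM), and on vehicle CD + Veh replicate 1 lay inside the MD + Veh range. Mmp12 rose by 4.59 ± 0.91 with PE (log2, SE; adjusted p = 0.00404), and by 3.25 without MD + PE replicate 4, still called. The CD + PE side of this value holds 15 counts over 5 libraries. On vehicle the difference of 2.19 ± 0.84 (adjusted p = 0.0902) was not called, but it was without CD + Veh replicate 1 (3.41, adjusted p = 0.0378) or MD + PE replicate 4 (2.20, adjusted p = 0.0268).

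Lgals3 (chr14:47605208-47623624, plus strand), galectin-3, a sugar-binding protein secreted by macrophages, lay on the threshold in both diet comparisons. CD + Veh libraries had 5.29, 3.29, 2.95 and 3.502 CPM and CD + PE libraries 2.32, 10.1, 2.91, 1.61 and 2.57 CPM. MD + Veh libraries had 11.9, 11.96, 12.001, 6.81 and 6.49 CPM and MD + PE libraries 8.45, 10.6, 4.69, 22.1 and 7.99 CPM. MD + Veh and CD + Veh did not overlap, and in CD + PE only replicate 2 reached the MD + PE range. The change was 1.39 ± 0.46 on vehicle (adjusted p = 0.0524, not called) and 1.46 ± 0.44 with PE (adjusted p = 0.049999, called). The exact permutation test, unadjusted, gave p = 0.00794 and 0.0317. Leaving out any 1 library other than CD + PE replicate 2 and MD + PE replicate 3 ended the call with PE (changes of 1.02 to 1.55, adjusted p of 0.0536 to 0.174), the lowest change being without MD + PE replicate 4. It also ended with only both groups in the fit (1.48, adjusted p = 0.132), and with RLE factors, no filter, the replicate block or thinning (adjusted p of 0.0503 to 0.0583). Between vehicle groups Lgals3 was called when leaving out CD + PE replicate 2 or 4, MD + Veh replicate 5, or MD + PE replicate 3 or 4 (changes of 1.39 to 1.51).

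PE itself was followed by no called change in the set. On the control diet 0 of the 10 genes were called between CD + PE and CD + Veh, where 2.92% of all genes tested were, and 0 had an unadjusted p below 0.05 in edgeR's test. On the MASH diet 0 of 10 were called between MD + PE and MD + Veh, where 1.08% of all genes tested were, and 1 (Lpl) had an unadjusted p below 0.05. In all 10 genes the groups overlapped in both comparisons. Over all genes tested, 7.83% did not overlap on the control diet (3.49% above and 4.35% below) and 3.57% on the MASH diet (1.08% above and 2.49% below). DESeq2 gave no adjusted p to 6 of the 10 on the control diet (Gpnmb, Trem2, Mmp12, Atp6v0d2, Itgax and Clec7a) nor to Trem2 on the MASH diet, and it called 0 of the others. Exact permutation tests gave p below 0.05 for 0 of 10 in both. Intervals were wide for the low genes. For Gpnmb the log2 change with PE was -2.25 ± 1.79 on the control diet (95% interval -6.08 to 1.58), where both groups held few counts, and 0.96 ± 0.75 on the MASH diet (95% interval -0.63 to 2.55). For Trem2 the values were -0.96 ± 0.97 (95% interval -3.03 to 1.11) and 0.47 ± 0.70 (95% interval -1.02 to 1.97), so changes of several fold in either direction were not detectable here. Members with more counts had narrower intervals. Spp1 changed by -0.14 ± 0.28 (-0.74 to 0.46) and 0.40 ± 0.27 (-0.17 to 0.97), and Cd9 by -0.18 ± 0.28 (-0.77 to 0.41) and 0.44 ± 0.27 (-0.13 to 1.01).

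**Figure D2:**
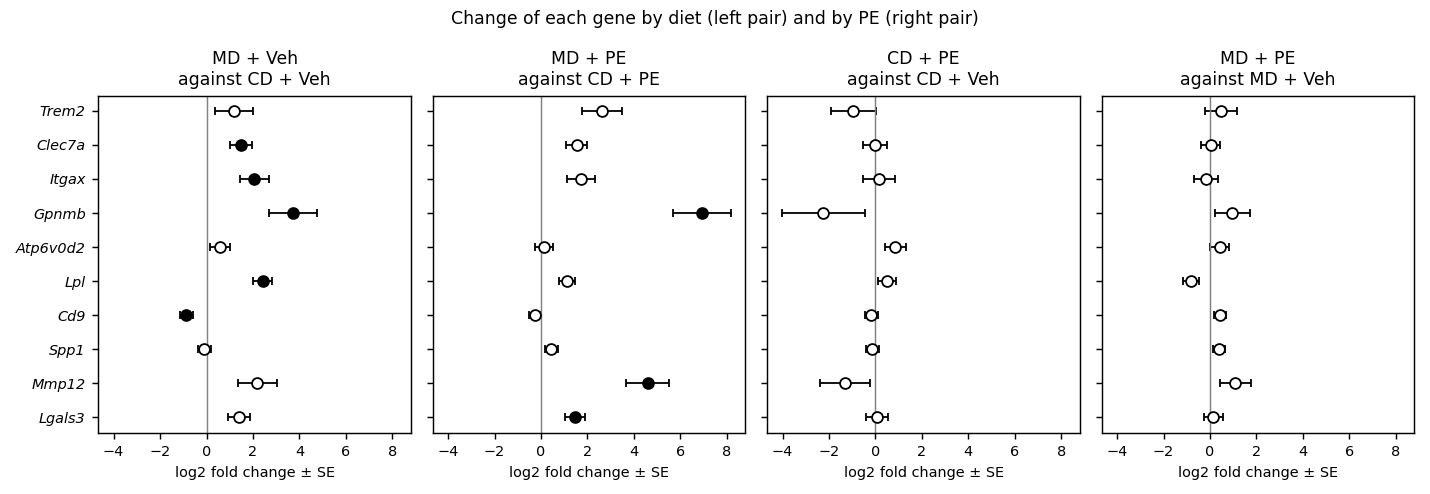
Each panel plots the log2 fold change of the 10 genes with its SE for 1 comparison, filled points being called (edgeR adjusted p below 0.05 and a log2 change of 0.38 or more either way). Filled points appear in the 2 diet panels, 5 on vehicle and 3 with PE, and the 2 PE panels hold 0.

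Lpl had the lowest p of the set in the MASH diet comparison of PE. MD + PE averaged 45.2 ± 16.4 CPM (SD, n = 5) and MD + Veh 79.8 ± 56.3 CPM (SD, n = 5), a log2 difference of -0.82 ± 0.35 (unadjusted p = 0.0321, adjusted p = 0.265 in edgeR). Without MD + Veh replicate 1 the difference was -0.28. Between the 5 MD + PE libraries and the 2 MD + Veh libraries of the same run of library numbers (46 to 57), it was 0.05 on log2(CPM + 0.5).

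The direction of the PE difference on the MASH diet rested on MD + PE replicate 4 in 7 of the 10 genes. Without it, the log2 change went from 0.96 to -0.80 for Gpnmb, from 0.47 to -1.10 for Trem2 and from 1.09 to -0.24 for Mmp12. For Spp1, Atp6v0d2, Lgals3 and Clec7a it went from between 0.03 and 0.41 to between -0.51 and -0.05. None of these values was called.

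The interaction of PE and diet, the PE change on the MASH diet minus that on the control diet, was called in 0 of the 10 genes, where 0.00735% of all genes tested were, by edgeR. DESeq2 gave an adjusted p to 9 of them, all but Trem2, and called 0. In edgeR 1 of the 10 had an unadjusted p below 0.05, Lpl at -1.30 ± 0.53 (log2, SE; edgeR adjusted p = 0.492), and without MD + Veh replicate 1 the value was -0.78. For Gpnmb it was 3.21 ± 1.93 (95% interval -0.90 to 7.32), for Mmp12 2.41 ± 1.27 (95% interval -0.30 to 5.11) and for Clec7a 0.05 ± 0.66 (95% interval -1.35 to 1.46). The diet changes on vehicle and with PE were thus not shown to differ for any member.

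Marker sums of MD + PE replicate 4 were set beside those of its group. Its pan-macrophage sum of 380 CPM was close to the 370 CPM of replicate 1, and its Kupffer cell sum of 348 CPM lay within the range of the group (322 to 550). Within the Kupffer cell list, Clec4f (29.8 CPM), Timd4 (1.58), Vsig4 (9.13), Marco (2.33), Folr2 (3.71) and Cd163 (3.30) were at their lowest of the group in replicate 4. Id3 (36.0 CPM) was at its highest there, and C6 and Cd5l were at neither end. Gpnmb, Mmp12 and Trem2 stood at 38.0, 23.3 and 5.77 CPM there, against at most 5.12, 4.04 and 0.813 CPM in the other 4 libraries. Its sum over 8 stellate cell markers was 500 CPM, against 193 to 331 CPM in those libraries, and its adipocyte sum 52.7 against 25.04 to 28.4. Fabp4 held 37.6 CPM of that adipocyte sum. Of the 7 adipocyte markers 4 were at 0 in this library, against 1 to 4 in the rest of its group. Its neutrophil sum of 4.39 CPM was the highest of all 19 libraries (1.53 to 3.25 in the rest of its group) and its hepatocyte sum of 53752 CPM the lowest (60024 to 72251). Its monocyte sum was 16.5 CPM, against 19.96 in replicate 2 and 5.91 to 7.09 in replicates 1, 3 and 5. The part of these cell types in its levels was not tested. CD + PE replicate 2 showed another pattern. Its pan-macrophage sum was 733 CPM and it was high in Clec7a (4.74 CPM) and Lgals3 (10.1 CPM), but Gpnmb stood at 0.175 CPM, inside the CD + Veh range of 0 to 0.808, and Mmp12 at 0.0877 CPM, inside the range of the other CD + PE libraries (0.0830 to 0.692).

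**Figure D3:**
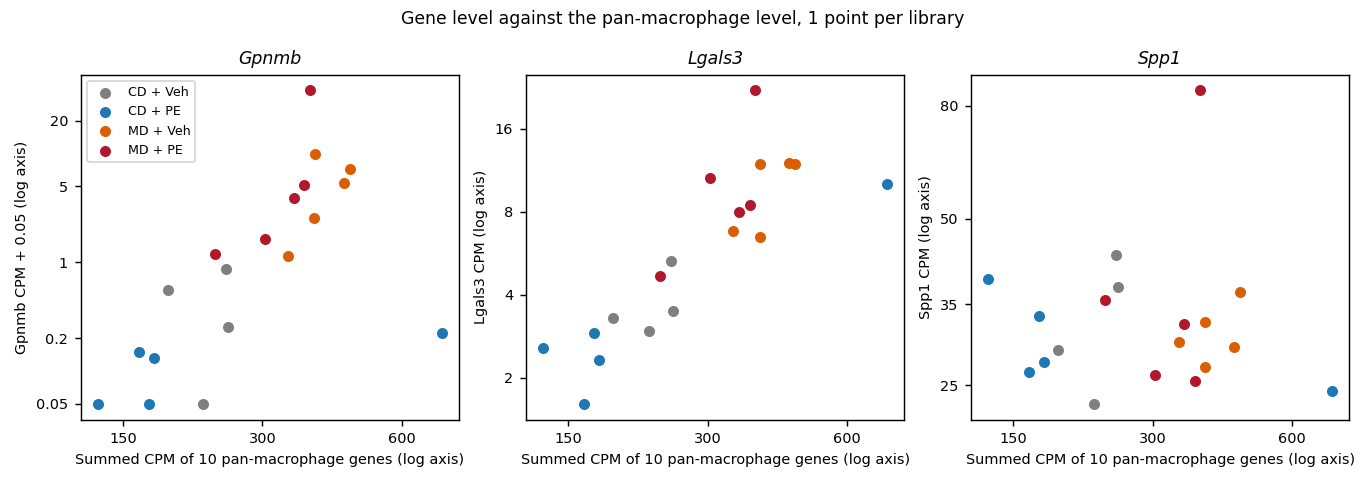
Each point is 1 library, with the summed CPM of 10 pan-macrophage markers on the horizontal log axis and the CPM of Gpnmb (with 0.05 added), Lgals3 or Spp1 on the vertical log axis, colours giving the groups. CD + PE replicate 2 is farthest right at 733 CPM with little Gpnmb, and MD + PE replicate 4 has the highest level of all 3 genes at a macrophage sum of 380 CPM.

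Levels were also expressed relative to the pan-macrophage sum. The pan-macrophage sum itself was higher in MD + Veh than in CD + Veh by 0.83 on the log2 scale (exact permutation p = 0.00794), and with PE the diets differed by 0.58 (exact permutation p = 0.246). The overlap with PE came from CD + PE replicate 2 alone, at 733 CPM. The other CD + PE libraries had 132 to 175 CPM, below the 237 to 380 CPM of MD + PE. Ratios with PE use the same sums. Within the pan-macrophage list 1 gene of 10 was called on vehicle, the lysozyme gene Lyz2 (1.27, adjusted p = 0.0450), and 0 with PE. Over all genes tested 10.4% and 4.61% were called, so these counts are near the general share. The Lyz2 call was lost, at 1.17 to 1.38 and adjusted p of up to 0.115, when any 1 of the CD + Veh libraries, MD + Veh replicates 1, 2, 3 and 5 or MD + PE replicates 1, 2 and 5 was left out. The ratio was taken as log2(CPM + 0.5) of a gene minus the log2 pan-macrophage sum. By it Gpnmb was higher in MD + Veh than in CD + Veh by 1.65 (exact permutation p = 0.0476) and Lpl by 1.36 (exact permutation p = 0.00794). The ratio was lower for Cd9 and Spp1, with differences of -1.71 and -0.89 (exact permutation p = 0.00794 for each). Spp1 itself differed by only -0.06 on log2(CPM + 0.5) (exact permutation p = 0.770), so its ratio mainly carries the rise of the sum. Both genes are also expressed outside macrophages, so these ratios are not levels per macrophage. Itgax, Lgals3, Clec7a and Mmp12 differed by 0.42 to 0.94 with exact permutation p of 0.0714 to 0.175. Trem2 differed by -0.22 (exact permutation p = 0.532) and Atp6v0d2 by -0.35 (exact permutation p = 0.310). The added 0.5 weighs most on low levels, as for Trem2 and Gpnmb in CD + Veh (at most 0.645 and 0.808 CPM). The edgeR change of Trem2 was 1.19, above the 0.83 of the sum, so the sign of its ratio difference is not settled. With PE on both diets the ratio was higher on the MASH diet for Gpnmb (2.56, exact permutation p = 0.00794), Mmp12 (1.93, exact permutation p = 0.0397), Lgals3 (0.86, exact permutation p = 0.0159) and Clec7a (0.76, exact permutation p = 0.00794). Lpl, Itgax and Trem2 differed by 0.41 to 0.54 (exact permutation p of 0.135 to 0.563). Cd9, Atp6v0d2 and Spp1 differed by -0.95 to -0.29 (exact permutation p of 0.103 to 0.675). These p-values are unadjusted over the 10 genes and the scale was chosen after the data had been seen.

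Within MD + Veh the libraries fell into 2 runs. Replicates 1 to 3 (library numbers 43 to 45) were above replicates 4 and 5 (46 and 47) in 8 of the 10 genes, all but Spp1 and Atp6v0d2. The share of all genes tested that divide in this way was not counted, so the split is not shown to be particular to the set. For Lgals3 the 3 libraries had 11.9 to 12.001 CPM and the other pair 6.49 and 6.81, and for Gpnmb 5.25 to 9.76 against 1.08 and 2.47. Pan-macrophage sums were 389 to 463 CPM in the first 3 and 341 and 389 in the pair, adipocyte sums 36.1 to 62.6 against 24.5 and 27.6, and skeletal muscle sums 125 to 2889 against 2.70 and 14.5. The labels place all libraries in 1 batch, and what separates the runs is not given in the sources used here. Restricted to library numbers 39 to 45 (3 MD + Veh against 4 CD + Veh), Gpnmb, Trem2, Lpl, Itgax, Lgals3 and Clec7a had means 1.13 to 3.21 higher on the MASH diet on log2(CPM + 0.5), Mmp12 a mean 2.14 higher, and Cd9 differed by -0.62. The 3 MD + Veh libraries kept are those with the higher levels, so these differences are given with no test.

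**Figure D4:**
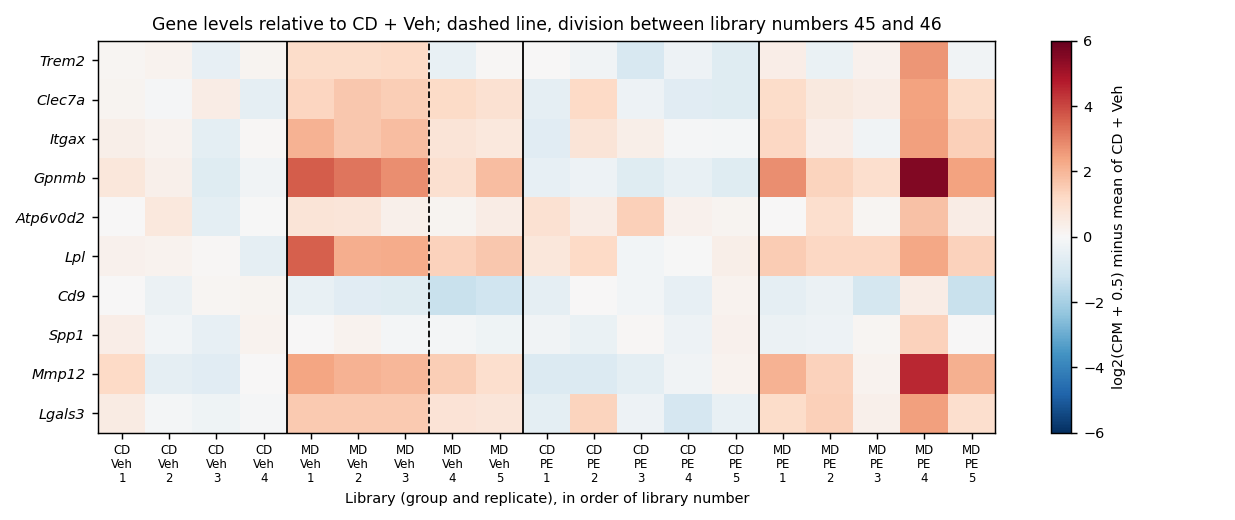
Rows are the 10 genes and columns the 19 libraries in order of library number, coloured by log2(CPM + 0.5) minus the mean of CD + Veh, with solid lines between groups and a dashed line between library numbers 45 and 46. MD + PE replicate 4 holds the darkest red cells, Gpnmb and Mmp12, and in MD + Veh the 3 libraries left of the dashed line are redder than the 2 to its right for Gpnmb, Trem2, Itgax and Lgals3.

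Among 24 genes of Trem2 signalling, lysosomal lipid handling and the factors that control them, all tested, 6 were called higher and 2 lower in MD + Veh against CD + Veh (4.74% and 5.63% of all genes tested), with a median log2 change of 0.57. The scavenger receptor Cd36 rose by 2.28 ± 0.35 (SE; adjusted p = 0.000286), and galectin-1 (Lgals1) by 1.98 ± 0.26 (adjusted p = 5.67e-05). Pparg, a lipid-responsive nuclear receptor, rose by 0.91, the lipid droplet coat gene Plin2 by 0.55, Apoe by 0.52 and the lysosomal protease gene Ctsb by 0.40. Ctsl, another lysosomal protease gene, fell by 0.44 and the fatty acid binding protein gene Fabp5 by 5.10 (adjusted p = 4.20e-08). Hepatocytes express Apoe, Plin2, Cd36, Ctsb, Ctsl and Fabp5 too, so these values are not those of macrophages alone. Fabp5, which is counted among lipid-associated macrophage genes elsewhere, averaged 329 ± 95.6 CPM in CD + Veh (SD, n = 4) and 9.62 ± 4.82 in MD + Veh (SD, n = 5), opposite to Gpnmb. The count was 5 without CD + Veh replicate 1 and 13 without CD + PE replicate 2. Leaving out CD + Veh replicate 1 or 3 or MD + Veh replicate 2 or 3 ended the calls of Pparg (0.71 to 0.88) and Plin2 (0.50 to 0.55), leaving out CD + Veh replicate 2 that of Plin2 (0.49), and without CD + Veh replicate 1 Ctsb (0.37) fell under the minimum change. With PE on both diets 2 were higher (Lgals1 by 1.21 and Cd36 by 1.69) and 2 lower (Ctsl by -0.44 and Fabp5 by -3.70), beside 1.69% and 2.92% of all genes tested, with a median of 0.15, and 9 were called without CD + PE replicate 2. The adaptor Tyrobp had 5.43 ± 1.48 CPM in CD + Veh and 10.3 ± 1.0997 in MD + Veh (SD, n = 4 and 5), a log2 difference of 0.93 that was not called (adjusted p = 0.0978).

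PE on the control diet was followed by 1 called gene of the 24 (2.92% of all genes tested), Fabp5, which fell by 2.03 ± 0.31 (SE; adjusted p = 0.00126), with 2 called without CD + PE replicate 2 and 2 by DESeq2 (Fabp5 and Lgals1; 5 of the 24 got no adjusted p). CD + PE libraries averaged 80.5 ± 31.4 CPM of it (SD, n = 5). With the division of library numbers as a covariate the fall was 2.36 and not called (adjusted p = 0.0797). On the control diet that division is the same as PE against vehicle, and the covariate was estimated from the MD + Veh libraries alone. On the MASH diet 0 of 24 were called between MD + PE and MD + Veh (1.08% of all genes tested), and 0 for the interaction (0.00735%). By edgeR 3 had an unadjusted p below 0.05 in the first of these, and DESeq2 called 0 of the 23 it gave an adjusted p in both.

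The members moved together to different degrees. Over the 19 libraries, as a description in which diet and depth are shared, the highest rank correlation of any pair was Lgals3 with Clec7a (Spearman rho 0.93), and Gpnmb with Mmp12 reached 0.89. After group means were taken out, Gpnmb correlated at 0.89 with Trem2 and 0.86 with Itgax (Pearson r), and at 0.73 and 0.80 without MD + PE replicate 4. Cd9 ran against Gpnmb over all libraries (rho -0.37) but with it inside groups (r 0.66, and 0.34 without that library). Spp1 and Gpnmb correlated at 0.67 inside groups and at 0.17 without it. The 8 genes most like the mean standardised level of the set, out of 9389 other genes averaging at least 5 CPM, were Anxa2 (rho 0.95), Anxa5 (0.93), Col4a1 (0.92), Tubb2a (0.92), Gsta1 (0.91), Lcn2 (0.91), Psap (0.91) and Atp6v1b2 (0.90), each over 19 libraries. With group means removed and MD + PE replicate 4 left out, these correlations were 0.54 to 0.87 (Pearson r), highest for the annexin Anxa2, a membrane-binding protein. Psap and Atp6v1b2 encode a lysosomal lipid-degradation cofactor and a subunit of the lysosomal proton pump, and Lcn2 a protein secreted by stressed hepatocytes and neutrophils. Gsta1 is nearly identical to Gsta2, and its count is uncertain where reads were divided between them.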

How the data were processed

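Bulk liver RNA-seq of 19 mice was used. The authors trimmed reads with fastp 0.23.4, ran Salmon 1.10.3 on GRCm39 and collapsed its transcripts to genes through tximport. Their deposited table gives estimated counts, rounded to whole numbers and neither normalized nor filtered, for 55836 genes. Libraries were assigned to groups from their titles and treatment labels. Over 36 pairs of libraries of 1 group no copies were found (at most 1.85% identical values). Replicates were separate mice.

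The analysis used R 4.3.3 and edgeR 4.0.16 (TMM, filterByExpr by group, 1 coefficient per group, quasi-likelihood F test over all 19 libraries, Benjamini-Hochberg adjustment over 13597 genes). The thresholds (0.05 and 0.38) follow the study's methods. SE is the log2 fold change divided by the square root of F. Single genes were also tested with an exact two-sided permutation test (Python 3.11.15, scipy 1.17.1) of log2(CPM + 0.5), without adjustment. Alternatives were DESeq2 1.42.0, RLE size factors, other filters, only the 2 groups compared, no minimum fold change, the replicate number as a block, a covariate dividing library numbers 45 and 46, a pseudocount of 0.1 and leaving out each library. Thinning to the smallest library total, leaving out both MD + PE replicate 4 and MD + Veh replicate 1, the ratio to the pan-macrophage sum and the values within runs of library numbers were chosen after seeing the data. The fit was tested on simulated data. The members and lists were chosen with earlier results of these data known.

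All 10 members were named. Genes of the Trem2 list were named where called, marker lists were given by sums and counts, and likeness was Spearman's rho with the mean standardised level of the members. Tyrobp lies outside this rule and was chosen after its values were seen. Positions are those of GENCODE vM39. Over 27 pairs of libraries with 1 replicate number, residuals correlated with a median of 0.0467 (range -0.257 to 0.413, above 0.1 in 7), and replicates were treated as unpaired.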

Additional observations from a re-analysis of the deposited data

Results flagged for a closer look

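Of 40 sets of values (10 genes in 4 groups), 9 held a library that stood apart from its group. Its gap to the nearest other library, divided by the range of the group, was above Dixon's 95% critical value. That value flags about 1 in 20 sets of normal values. The values here were CPM without logs, of genes measured in the same libraries, so 1 in 20 is no measure of chance for them. Of the 9, 6 were MD + PE replicate 4, with 38.0 CPM of Gpnmb, 5.77 of Trem2, 85.3 of Spp1, 74.0 of Lpl, 23.3 of Mmp12 and 11.6 of Clec7a. The other 4 MD + PE libraries had at most 5.12, 0.813, 35.6, 43.2, 4.04 and 4.39 CPM of these genes. CD + PE replicate 2 stood apart in Lgals3 (10.1 CPM, against 1.61 to 2.91 in the other 4) and in Clec7a (4.74 CPM, against 0.889 to 1.32). MD + Veh replicate 1 stood apart in Lpl, with 178 CPM against 38.7 to 69.3. The cause of these levels was not tested.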

How the results depend on the processing

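The count of called genes was 5 in MD + Veh against CD + Veh and 3 when all libraries were thinned to the smallest total, and it was 3 in MD + PE against CD + PE and 7 by DESeq2. The other alternatives gave 4 to 7 and 2 to 4. With each library left out in turn, the counts were 1 to 7 and 2 to 6, and 0 in every such fit for the PE comparisons and the interaction. Exact tests below 0.05 then numbered 6 to 8 on vehicle and 3 to 6 with PE between diets, 0 to 1 between CD + PE and CD + Veh, and 0 between MD + PE and MD + Veh. With the replicate number as a block the counts were 5, 3, 0, 0 and 0. On vehicle the block ended the calls of Cd9 and Clec7a and added Mmp12 and Lgals3; with PE it ended that of Lgals3 and added Lpl. Over all genes, 397 were called between CD + PE and CD + Veh and 37 with the library number division as a covariate. On the control diet that division is the same as PE against vehicle, so the covariate was estimated from the MD + Veh libraries alone. Between MD + PE and MD + Veh 147 were called, and 296 by DESeq2, 33 with the covariate, 73 with only the 2 groups compared and 55 without MD + PE replicate 4 and MD + Veh replicate 1. For the interaction 1 was called, and 85 by DESeq2, 41 with the block, 54 with the covariate and 0 without those libraries. The causes were not tested. Of 1829 values of single genes under alternatives, 1694 were counted as the same, 83 lost a call and 31 gained one. A further 21 uncalled values changed sign with a shift above 1 SE. Uncalled values that changed sign with a smaller shift were counted as the same, and 0 called values changed sign. At 4 to 43 counts per group, as for Gpnmb, Trem2, Mmp12 and Itgax on the control diet, depth limits the fold changes.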
